A study of Rattus norvegicus with 12 samples.

Results

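Neurexins and neuroligins are among the proteins that join the presynaptic terminal to the postsynaptic membrane, and neurexophilins are secreted ligands of neurexins. Of the 32623 genes in the deposited tables, 9 were taken by symbol, namely the neurexins Nrxn2 and Nrxn3, the neuroligins Nlgn1, Nlgn2 and Nlgn3, and the neurexophilins Nxph1, Nxph2, Nxph3 and Nxph4. All 9 were found, and all 9 passed the filter on low counts in every comparison. Their RNA was counted in 12 libraries from laser-microdissected dorsal horn of the L5 spinal cord, 3 for each combination of layer (laminae I–II or laminae III–VI) and treatment (Saline or CNO). All rats were 8 weeks old and heterozygous for the OT-hM3Dq-mCherry transgene, a bacterial artificial chromosome in which the promoter of the oxytocin gene drives the activating receptor hM3Dq fused to the red fluorescent protein mCherry. The rats had received Saline or CNO, the ligand of hM3Dq, under the skin at 1 mg/kg of CNO, and tissue was taken 120 min later. The oxytocin promoter directs the receptor to oxytocin neurons, whose cell bodies lie in the hypothalamus and some of which send axons to the spinal cord. RNA of the transgene was not analysed here. No rat without the transgene is among these libraries, so an action of CNO itself and an action through hM3Dq cannot be told apart. The methods state 30 dissected specimens from 3 rats.

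Neurexins sit on the axon terminal and reach across the cleft, where they bind neuroligins on the dendrite or cell body and a range of other ligands. Each neurexin gene makes long and short forms from separate promoters, and alternative exons of neurexins and neuroligins set which partners can bind. Neurexophilins are small secreted glycoproteins that bind the long neurexins. In the dorsal horn, laminae I–II receive mainly nociceptive and thermal input and laminae III–VI mainly tactile and proprioceptive input, and both hold excitatory, GABA-ergic and glycinergic interneurons. Counts per gene do not separate the long from the short forms or one splice form from another.

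In the rn6 annotation that was deposited with the counts, Nrxn2 lies at chr1:221792221-221908049 (plus strand), Nrxn3 at chr6:112133204-114067564 (plus), Nlgn1 at chr2:111057291-111793326 (minus), Nlgn2 at chr10:56431573-56444847 (minus) and Nlgn3 at chrX:71199491-71222732 (plus). Nxph1 lies at chr4:35279063-35281013 (plus), Nxph2 at chr3:307204-307980 (plus), Nxph3 at chr10:83328410-83332851 (minus) and Nxph4 at chr7:70833663-70842405 (minus). The annotated models of Nxph1 and Nxph2 span only 1951 and 777 bases, and counts of these genes refer to those spans. Genes that overlap Nrxn2, Nrxn3 and Nlgn3 are pseudogenes and small non-coding genes with at most 1 count in any library, apart from 5S_rRNA copies that were not matched by name.

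Nlgn1 and Nlgn2 are the neuroligins best known from opposite kinds of synapse, Nlgn1 from excitatory and Nlgn2 from inhibitory ones. Their mean shares of the neuroligin counts differed between the layers in opposite directions, though neither share passed the adjusted permutation test given below. Shares of 1 family add up to the whole, so opposite signs are partly built in, and Nlgn3 shifted the same way as Nlgn1. The promoter windows of Nlgn1 and Nlgn2 run from 250 bases before to 50 bases after the RefSeq gene start in the GRCr8 build. They are shown with GC boxes (GGGCGG, either strand) in capitals. The Nlgn1 window is chr2:110930627-110930926 and the Nlgn2 window chr10:55056529-55056828, both on the minus strand and printed 5′ to 3′ along the gene.
Nlgn1: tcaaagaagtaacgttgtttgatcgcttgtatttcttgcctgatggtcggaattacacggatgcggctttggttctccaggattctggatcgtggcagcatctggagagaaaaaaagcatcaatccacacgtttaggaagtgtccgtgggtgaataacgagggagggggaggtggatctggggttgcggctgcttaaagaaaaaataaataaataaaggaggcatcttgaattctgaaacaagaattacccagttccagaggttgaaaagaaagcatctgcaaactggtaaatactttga
Nlgn2: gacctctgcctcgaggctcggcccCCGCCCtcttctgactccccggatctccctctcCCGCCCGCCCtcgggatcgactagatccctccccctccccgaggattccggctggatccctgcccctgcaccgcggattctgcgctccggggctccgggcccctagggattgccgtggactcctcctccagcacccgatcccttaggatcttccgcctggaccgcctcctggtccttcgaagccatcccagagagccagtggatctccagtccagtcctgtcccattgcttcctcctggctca
The Nlgn2 window held 3 GC boxes, 2 of them overlapping, and the Nlgn1 window none. GC content was 67.3% for Nlgn2 and 43.3% for Nlgn1, against a median of 52.3% over 27457 RefSeq windows, of which 34.9% held a GC box. The dinucleotide CG occurred 20 times in the Nlgn2 window and 10 times in that of Nlgn1, against a median of 7. A CCAAT box (CCAAT, either strand) is in 37.7% and a TATA box (TATAAA, either strand) in 14.3% of all windows, and neither gene had one. Windows were found for 5 of the 9 genes (Nlgn1, Nlgn2, Nlgn3, Nxph1 and Nxph2), and a match is a description of the letters only.

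The libraries held 5245952 to 7889953 counts each. The layers were as labelled in all 12 libraries, since the summed level of 15 superficial markers was 1574 to 1983 CPM (counts scaled to a library total of 1e6) in laminae I–II and 663 to 829 CPM in laminae III–VI. Levels of the members are given below as normalized CPM, which are CPM after the library totals were rescaled by TMM (trimmed mean of M values) over the 12 libraries. They depend on gene length as well as abundance, so levels are compared between libraries and never between genes. In bulk tissue, fewer cells of a type and less RNA per cell cannot be told apart. Because the source does not state that each library is a separate rat, p-values may measure only the spread between these libraries. Below, a rat means the superficial and deep library of the same treatment and number, a pairing that the labels do not state.

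**Figure D1:**
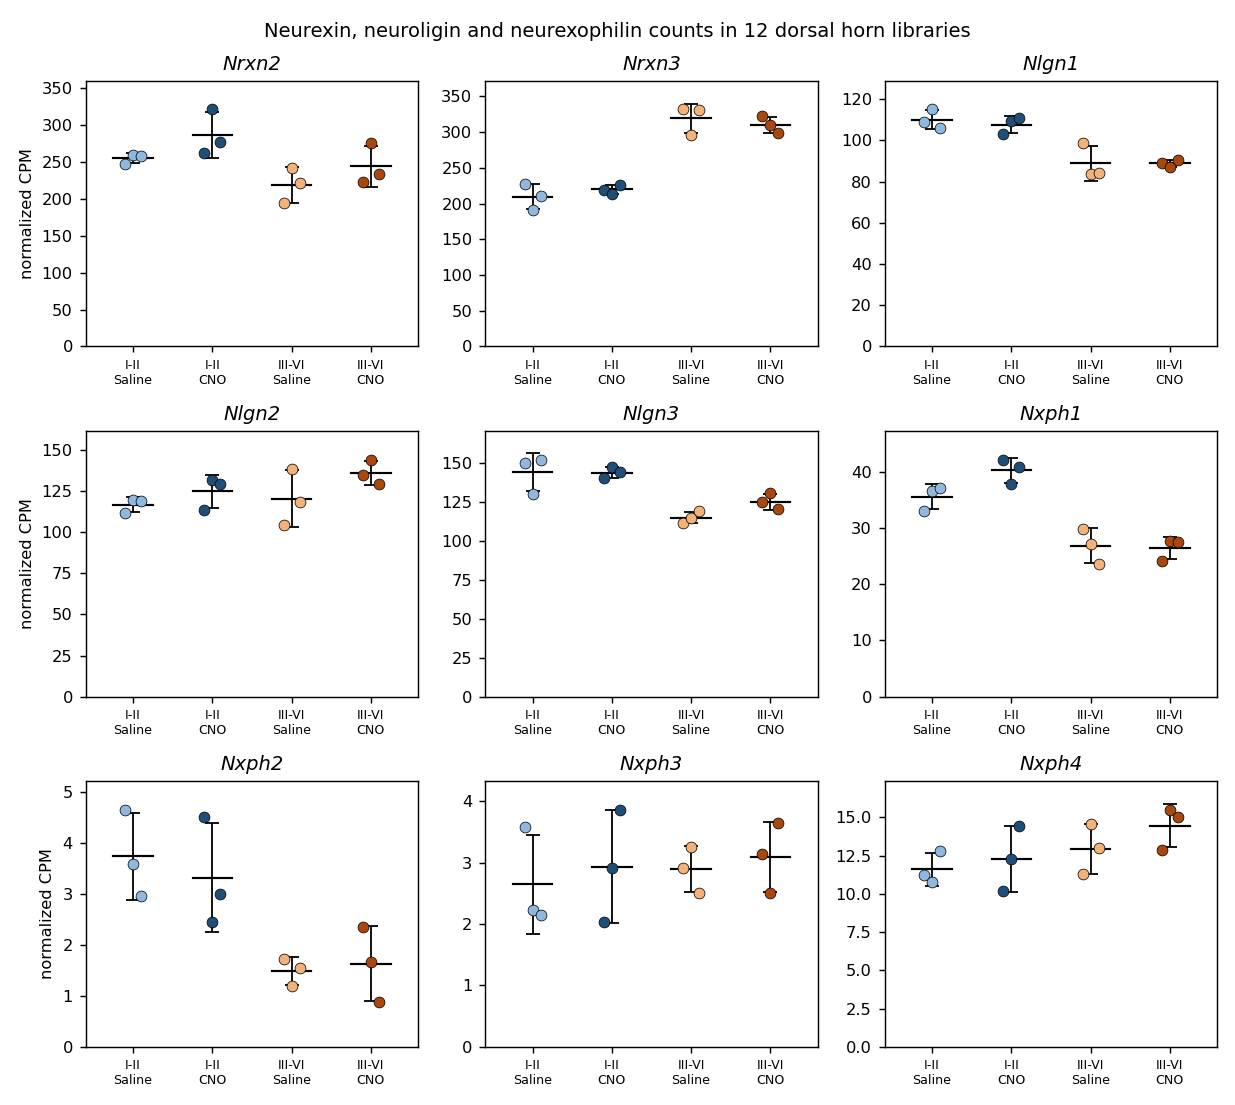
Normalized CPM (y axis, linear from 0) of each of the 9 genes in 12 libraries, grouped by layer and treatment (x axis). Each point is 1 library, horizontal bars are means and error bars SD (n = 3). The layer groups of Nrxn3, Nlgn1, Nxph1 and Nxph2 do not overlap, and no gene differed between Saline and CNO past the test.

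Between the layers, 5 of the 9 genes were higher in laminae I–II (Nrxn2, Nlgn1, Nlgn3, Nxph1 and Nxph2), Nrxn3 was higher in laminae III–VI, and Nlgn2, Nxph3 and Nxph4 did not pass the test. The test was the quasi-likelihood test of edgeR over all 12 libraries with the rat as a block, and Benjamini-Hochberg adjustment over 13745 genes. Over all those genes, 30.8% were called higher in laminae I–II and 30.8% higher in laminae III–VI, so a layer difference as such is common here. The median log2 difference (laminae I–II minus laminae III–VI) was 0.23 over the members and 0.02 over all genes tested.

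Nrxn3, a neurexin whose deletion in mice is known to alter synaptic transmission in a region-dependent way, was the member with the smallest p. In laminae I–II its level was 191 at the lowest, 217 at the median and 227 at the highest normalized CPM over 6 libraries. In laminae III–VI it was 296, 316 and 332 normalized CPM in the same order. Every deep library was above every superficial one, and the deep library exceeded the superficial one in 6 of 6 rats. The log2 difference was -0.55 (SE 0.04, 95% interval -0.63 to -0.48, edgeR adjusted p = 5.14e-12), that is 1.47-fold higher in laminae III–VI.

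Nrxn2, the other neurexin, went the opposite way. Its level was 247, 261 and 321 normalized CPM (lowest, median, highest) in laminae I–II and 194, 228 and 276 normalized CPM in laminae III–VI. The groups overlapped, yet within every rat the superficial library was the higher one, by 0.10 to 0.35 on the log2 scale (6 of 6 rats). The fitted log2 difference was 0.23 (SE 0.04, edgeR adjusted p = 6.07e-06), a 1.17-fold difference that is smaller in size than that of most genes tested (41.6% of them had a smaller one).

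Among the neuroligins, Nlgn1, which acts mainly at excitatory synapses, was 103, 109 and 115 normalized CPM in laminae I–II and 83.7, 88.1 and 98.7 normalized CPM in laminae III–VI. These groups did not overlap. Its log2 difference was 0.29 (SE 0.04, edgeR adjusted p = 5.51e-06), with laminae I–II higher in 6 of 6 rats. Nlgn3, which is found at both excitatory and inhibitory synapses and is also made by glia, was 130, 146 and 152 normalized CPM in laminae I–II and 111, 119 and 130 normalized CPM in laminae III–VI. Here the lowest superficial library and the highest deep library met at about the same level. The log2 difference of Nlgn3 was 0.26 (SE 0.04, edgeR adjusted p = 9.15e-06), again higher in 6 of 6 rats.

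Nlgn2, the neuroligin of inhibitory synapses that assembles gephyrin and GABA-A receptors, behaved differently. It was 112, 119 and 132 normalized CPM in laminae I–II and 104, 132 and 144 normalized CPM in laminae III–VI, with full overlap. Its log2 difference was -0.08 (SE 0.05, 95% interval -0.17 to 0.01, edgeR adjusted p = 0.126), and laminae I–II were higher in 2 rats and lower in 4. It passed the test as higher in laminae III–VI when the laminae I–II Saline library 1 was left out (log2 -0.12, edgeR adjusted p = 0.0317) or the laminae III–VI Saline library 1 (log2 -0.12, edgeR adjusted p = 0.0266). With the rat as a block, both runs take the same pair, that of Saline rat 1, out of the comparison, and so are a single check. That rat had the highest log2 difference of all rats, 0.098.

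Nxph2, a secreted ligand of the long neurexins, had the largest log2 difference of the members, at low counts. Its counts were 16 to 31 per library in laminae I–II against 6 to 15 in laminae III–VI. As normalized CPM this was 2.45, 3.30 and 4.65 in laminae I–II and 0.87, 1.60 and 2.35 in laminae III–VI. No deep library reached a superficial one. The log2 difference was 1.17 (SE 0.23, 95% interval 0.69 to 1.66, edgeR adjusted p = 0.000139), which is 2.25-fold, and it was positive in 6 of 6 rats, from 0.56 to 1.78.

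Nxph1, which in mice is known from inhibitory interneurons, was 33.1, 37.4 and 42.1 normalized CPM in laminae I–II and 23.6, 27.3 and 29.8 normalized CPM in laminae III–VI. Again the groups did not overlap. The log2 difference was 0.51 (SE 0.07, edgeR adjusted p = 3.15e-06), 1.42-fold, with every rat positive and the rats ranging from 0.15 to 0.80.

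Nxph3 and Nxph4, further neurexophilins, did not pass. Nxph3 had 13 to 27 counts per library, and its log2 difference was -0.11 with a wide 95% interval of -0.54 to 0.33 (edgeR adjusted p = 0.683). Laminae I–II were higher in 3 rats and lower in 3, so at this depth a difference of moderate size in either direction was not detectable. Nxph4 was 10.2, 11.8 and 14.4 normalized CPM in laminae I–II and 11.3, 13.8 and 15.5 normalized CPM in laminae III–VI. The deep library of Nxph4 was the higher one in 6 of 6 rats, but in the closest rat by less than 0.01 on the log2 scale, and its log2 difference of -0.19 (95% interval -0.40 to 0.01) had an edgeR adjusted p of 0.0968.

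These directions depend in part on how the libraries are scaled. TMM moved the layer difference of every gene by -0.18 on the log2 scale relative to scaling by library totals, and 6515 genes were called higher in laminae I–II and 2533 lower with library totals. The summed level of 12 neuronal markers was 6771 to 7190 CPM in laminae I–II and 8607 to 9142 CPM in laminae III–VI, and scaling by that sum gave 10621 genes higher and 867 lower. The 5 members called higher in laminae I–II were called so on all 3 scales. The other scales moved all genes toward laminae I–II, with 47.4% (library totals) and 77.3% (neuronal sum) of genes called higher. They could therefore hardly remove such a call. Nrxn3 had log2 -0.37 with library totals (edgeR adjusted p = 1.03e-08), but -0.04 with the neuronal sum (adjusted p = 0.343), so its call was lost there. Nlgn2 turned to 0.10 with library totals (adjusted p = 0.0698) and to 0.43 with the neuronal sum (adjusted p = 1.77e-08). Nxph3 turned to 0.073 and 0.40, and Nxph4 to 0.32 with the neuronal sum (adjusted p = 0.00571) after -0.01 with library totals. Whether less neuronal RNA in laminae I–II has a part in these differences was not tested beyond this scaling.

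**Figure D2:**
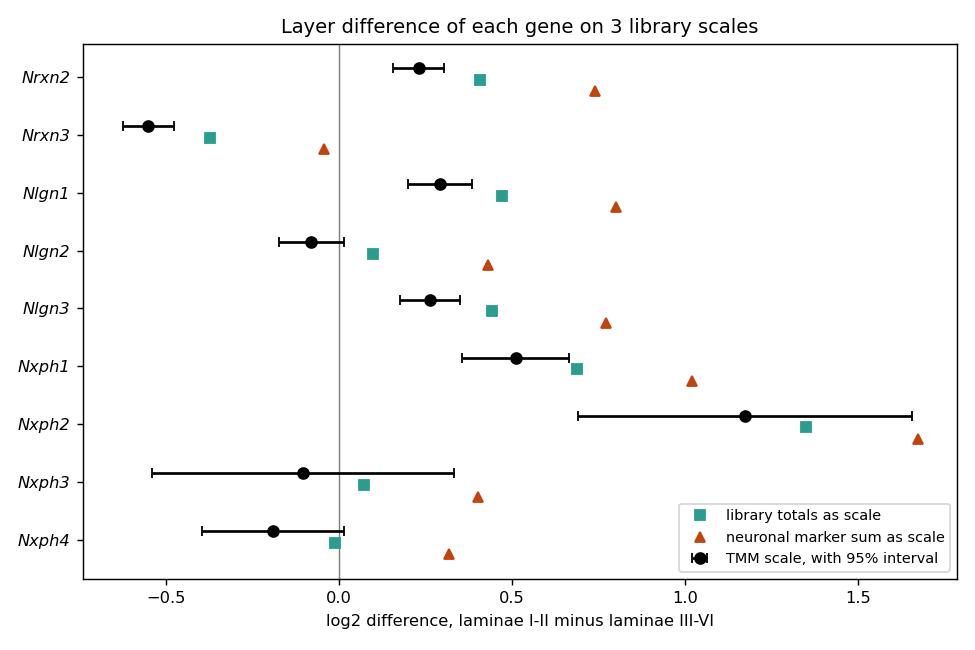
Log2 difference between laminae I–II and laminae III–VI (x axis) for each gene (y axis) on 3 library scales. Black points with bars are the TMM fit with its 95% interval, squares use library totals and triangles the summed neuronal markers. Nrxn2, Nlgn1, Nlgn3, Nxph1 and Nxph2 lie to the right of 0 on every scale, while Nlgn2 moves from -0.08 to 0.43 and Nrxn3 from -0.55 to -0.04. For every gene the squares and triangles lie to the right of the TMM point.

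A quantity that does not depend on library scale is the share of a gene in the counts of its own family within a library. Shares reflect gene length too, so only their differences between layers are read. Nrxn2 held 52.1% at the lowest, 55.0% at the median and 60.0% at the highest of the Nrxn2 and Nrxn3 counts in laminae I–II, and 36.9%, 42.3% and 47.1% in laminae III–VI. The layers did not overlap, and the mean fell by 13.4 percentage points (SD 1.53, n = 6 rats) from 55.7% in laminae I–II to 42.3% in laminae III–VI.

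Of the neuroligin counts, Nlgn2 held 30.1%, 32.3% and 34.0% in laminae I–II and 33.2%, 38.4% and 41.2% in laminae III–VI. Its mean share was -5.61 percentage points different in laminae I–II (SD 1.87), lower in 6 of 6 rats. Nlgn3 had the opposite sign, with means of 38.5% and 35.6% and a difference of 2.92 percentage points (SD 1.27, higher in 6 of 6 rats). The share of Nlgn1 was 29.2% in laminae I–II against 26.5% in laminae III–VI, higher in 5 of 6 rats.

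Of the neurexophilin counts, Nxph4 held 17.3%, 21.8% and 23.4% in laminae I–II and 24.6%, 31.7% and 32.7% in laminae III–VI, with no overlap. The difference in its mean share was -9.23 percentage points (SD 3.39, lower in laminae I–II in 6 of 6 rats). The mean share of Nxph1 was 67.4% in laminae I–II against 59.3% in laminae III–VI (higher in 5 of 6 rats), that of Nxph2 6.32% and 3.51% (6 of 6), and that of Nxph3 4.97% and 6.67% (higher in 1 of 6).

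Each within-rat difference was tested by an exact two-sided permutation test that changes the signs of the 6 differences. Nrxn2, Nlgn2, Nlgn3, Nxph2 and Nxph4 reached an exact p of 0.03125, the smallest that 6 rats allow, and a Benjamini-Hochberg adjusted value of 0.05 over the 8 shares tested, which is not below the threshold of 0.05. Nxph1 had an exact p of 0.0625 (adjusted 0.0833), and Nlgn1 and Nxph3 an exact p of 0.0938. Shares of 1 family add up to the whole and are not independent of each other.

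**Figure D3:**
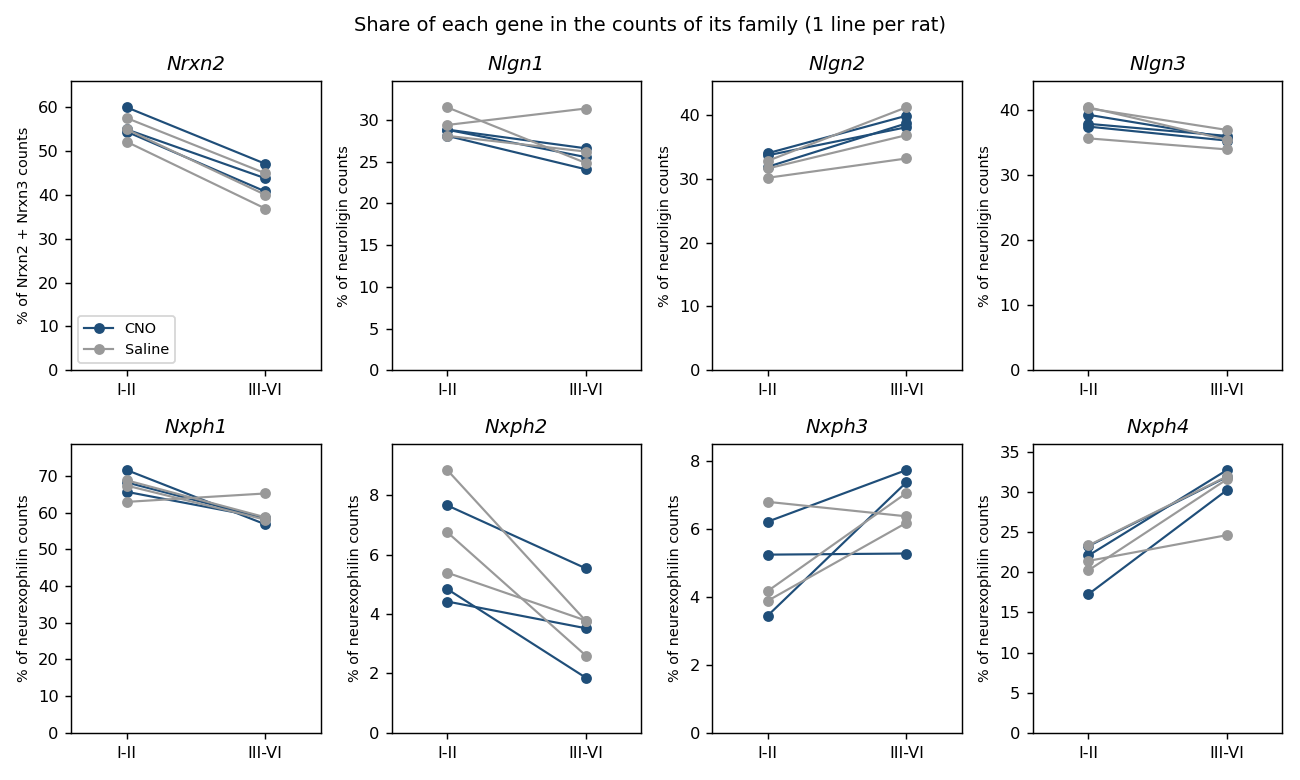
Share of each gene in the counts of its family (y axis, percent from 0) in laminae I–II and laminae III–VI (x axis). Each line joins the libraries of the same treatment and number, treated as 1 rat, grey for Saline and blue for CNO. All 6 lines fall from laminae I–II to laminae III–VI for Nrxn2, Nlgn3 and Nxph2 and all 6 rise for Nlgn2 and Nxph4.

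CNO was compared with Saline within each layer to ask whether activation of the oxytocin neurons changed these genes. In laminae I–II, 0 of the 9 genes passed in either direction (quasi-likelihood test of edgeR over 13344 genes, lowest adjusted p = 0.691), against 0.0300% of all genes higher and 0.112% lower with CNO. In laminae III–VI, 0 of 9 passed as well (13117 genes, lowest adjusted p = 0.537), against 0.0839% higher and 0.0534% lower. At an unadjusted p under 0.05 there was 1 of the 9 genes in each layer, against 7.05% of all genes tested on the superficial side and 9.24% in laminae III–VI. DESeq2 and limma-voom also called 0 of 9 in both layers.

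Log2 differences (CNO minus Saline) ran from -0.17 to 0.17 in laminae I–II and from -0.05 to 0.18 in laminae III–VI. Groups did not overlap for 2 of the 9 genes in laminae I–II, both higher with CNO, and for 1 of 9 in laminae III–VI, also higher. Over all genes, groups did not overlap in 6.72% (higher) and 5.10% (lower) for laminae I–II, and in 7.72% and 6.78% for laminae III–VI. Numbers this small among 9 genes do not set the members apart from that background.

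Nrxn2 was the gene with an unadjusted p under 0.05 in laminae I–II. Its Saline libraries were at 247, 259 and 258 normalized CPM and its CNO libraries at 262, 321 and 276 normalized CPM. The groups did not overlap, the lowest CNO library being just above the highest Saline one. The log2 difference was 0.16 (SE 0.07, edgeR adjusted p = 0.691, and 0.0419 before adjustment), and it was 0.069 without CNO replicate 2 and 0.22 without CNO replicate 1. In laminae III–VI the Saline libraries were at 194, 242 and 221 and the CNO libraries at 222, 276 and 233 normalized CPM, which overlap, with log2 0.15 (edgeR adjusted p = 0.594).

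Nxph1 in laminae I–II was at 33.1, 36.6 and 37.0 normalized CPM with Saline and at 42.1, 37.8 and 40.8 normalized CPM with CNO. These did not overlap, by a narrow margin. Its log2 difference was 0.17 (95% interval -0.03 to 0.37, edgeR adjusted p = 0.786). In laminae III–VI Nxph1 had log2 -0.03 (edgeR adjusted p = 0.967).

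Nlgn2 was the gene with an unadjusted p under 0.05 in laminae III–VI. With Saline it was at 104, 139 and 118 normalized CPM and with CNO at 135, 144 and 129 normalized CPM. The groups overlapped, since 1 Saline library was above 2 of the CNO libraries. The log2 difference was 0.18 (SE 0.08, edgeR adjusted p = 0.537, and 0.0484 before adjustment), and it was 0.082 without Saline replicate 1 and 0.29 without Saline replicate 2. In laminae I–II it was 0.09 (edgeR adjusted p = 0.867). Nlgn3 in laminae III–VI was at 111, 114 and 119 normalized CPM with Saline and at 125, 130 and 120 normalized CPM with CNO, without overlap. Its log2 difference was 0.12 there (95% interval -0.02 to 0.25, edgeR adjusted p = 0.609) and -0.01 in laminae I–II.

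For the genes with many counts the intervals bound the size of any CNO effect. The 95% interval of Nrxn3 was -0.08 to 0.20 in laminae I–II against -0.18 to 0.08 in laminae III–VI, and that of Nlgn1 -0.19 to 0.10 and -0.16 to 0.15. That of Nrxn2 was 0.0065 to 0.31 and -0.02 to 0.32, and that of Nlgn2 -0.07 to 0.24 and 0.0014 to 0.35. Nrxn2 in laminae I–II and Nlgn2 in laminae III–VI thus had unadjusted intervals just above 0, although neither passed after adjustment. For the neurexophilins with few counts the intervals were wide. Nxph2 had -0.81 to 0.47 in laminae I–II against -0.76 to 0.96 in laminae III–VI, so a change of that size was not detectable at this depth. Nxph3 had -0.56 to 0.86 and -0.49 to 0.71, and Nxph4 -0.28 to 0.42 and -0.14 to 0.47.

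Whether CNO acted differently in the 2 layers was asked with an interaction term, fitted with the rat as a block, which passed for 0 of the 9 genes (edgeR lowest adjusted p = 0.643), with 0 by DESeq2. At an unadjusted p under 0.05 there were 0 of the 9, against 1273 of 13745 genes (9.26%). Over all genes, 0.146% passed with a CNO minus Saline difference more positive in laminae I–II than in laminae III–VI, and 0.284% with one more negative. The widest interval was that of Nxph2 (-1.27 to 0.74) and the narrowest that of Nrxn3 (-0.02 to 0.25).

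Markers of Schwann cells and of fibroblasts and meninges moved with treatment in laminae I–II. The summed level of 9 Schwann cell markers was 774 to 1154 CPM with Saline and 574 to 605 CPM with CNO, and 4 of the 8 tested were lower with CNO. That of 11 fibroblast and meningeal markers was 362 to 782 CPM with Saline and 342 to 365 CPM with CNO. These ranges overlapped, and 2 of the 11 markers were lower. None of these markers listed in the tables was at 0 in all libraries. Their part in the small CNO differences of Nrxn2 and Nxph1 was not tested.

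**Figure D4:**
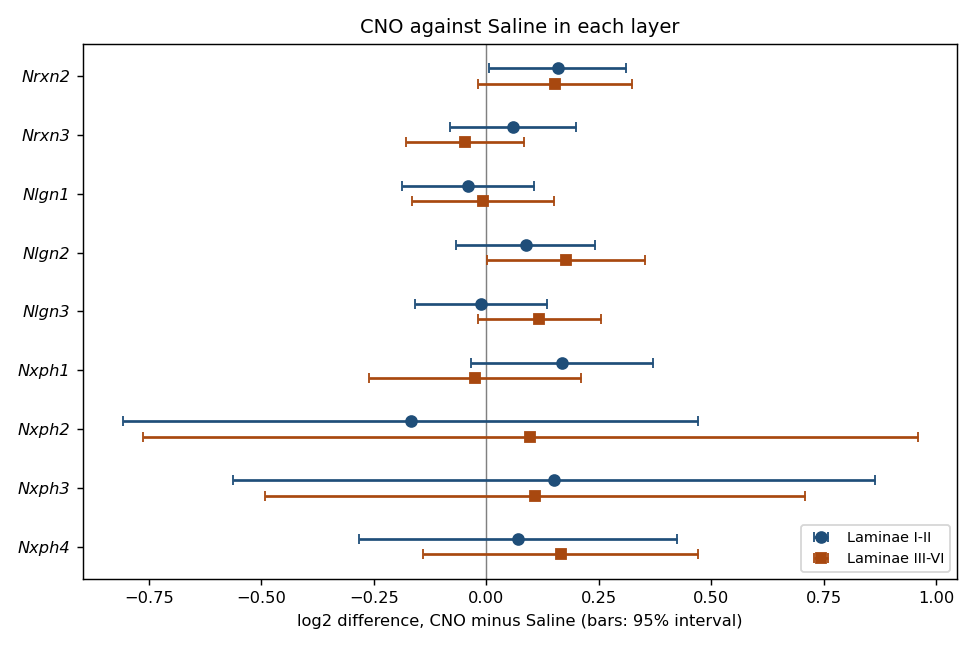
Log2 difference between CNO and Saline (x axis) for each gene (y axis) in laminae I–II (blue circles) and laminae III–VI (brown squares), with 95% intervals as bars. All points lie between -0.17 and 0.18, and the intervals are widest for Nxph2 and Nxph3.

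The other proteins that meet these families across the cleft differed between the layers as well, and none of them passed in a CNO comparison or in the interaction. The lists hold their known partners by role. Of 9 tested neurexin ligands other than neuroligins, 6 were higher on the superficial side, 2 were lower and 1 did not pass, with a median log2 difference of 0.16 against 0.02 over all genes. C1ql3, a secreted C1q-like protein of the cleft, was at 16.4 ± 1.54 normalized CPM (SD, n = 6) in laminae I–II against 3.16 ± 0.97 in laminae III–VI (log2 2.38, edgeR adjusted p = 1.49e-12). Cbln1, a cerebellin that bridges neurexins to delta-type glutamate receptors, was at 36.2 ± 3.31 and 15.7 ± 2.94 normalized CPM (log2 1.21). Grid1, a delta-type receptor, was also higher in laminae I–II, by 0.28 on the log2 scale. In the opposite direction, the calsyntenin Clstn3 was at 420 ± 17.2 and 614 ± 22.3 normalized CPM (log2 -0.55), and Cbln4, another cerebellin, at 6.43 ± 0.73 and 11.5 ± 2.08 normalized CPM (log2 -0.83). With the neuronal sum as scale Cbln4 kept a call at -0.32, and Clstn3 lost its own at -0.04. Lrrtm1, Ca10 and Ca11 were not matched by symbol.

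On the postsynaptic side, 9 of 12 tested partners of neuroligins were higher in laminae I–II, 0 were lower and 3 did not pass (median log2 0.26). Shank3 (log2 0.85, edgeR adjusted p = 9.28e-13), Dlgap1 (0.79), Dlg3 (0.69) and Dlg2 (0.55), scaffold proteins of excitatory postsynaptic densities, led this list. Gphn, which encodes the gephyrin of inhibitory synapses, was higher by 0.21 on the log2 scale. The list had 11 of 12 higher with library totals and 12 of 12 with the neuronal sum, scales on which 47.4% and 77.3% of all genes were called higher, against 30.8% with TMM.

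Inside the terminal, 4 of 7 tested partners of neurexins had more counts in laminae I–II and 3 fewer (median log2 0.18). Syt1, the calcium sensor of synaptic vesicles, was at 624 ± 27.6 normalized CPM (SD, n = 6) in laminae I–II against 246 ± 16.2 in laminae III–VI (log2 1.35, edgeR adjusted p = 2.26e-19). Sdcbp, which encodes syntenin, had log2 -0.66, Lin7b -1.18, and Apba1, an adaptor also called Mint, -0.26. Apba1 turned to 0.25 with the neuronal sum. Cask was listed at 0 in every library, as were Cldn5 among endothelial and Slc18a3 among motor neuron markers. Whether a 0 here means that no RNA was present was not tested, so Cask is not read as absent.

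Splicing regulators that act on neurexin and neuroligin exons were higher in laminae I–II in 8 of 10 cases, lower in 1 and not past the test in 1 (median log2 0.39), and with library totals or the neuronal sum, which call more of all genes higher, 9 were higher and 1 lower. Celf4 had log2 1.13 (edgeR adjusted p = 1.78e-12) and Rbfox1 0.42. Khdrbs3, which encodes a protein known in mice to control an alternative exon of neurexins, had 0.53. Nova1 was the one regulator higher in laminae III–VI, at 122 ± 6.27 normalized CPM in laminae I–II against 202 ± 13.3 in laminae III–VI (log2 -0.73, adjusted p = 3.82e-14), and remained lower in laminae I–II on both other scales. Rbfox3, the gene that did not pass, is also in the neuronal list. Exon use of the neurexins cannot be read from counts per gene.

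The remaining lists were mixed. Among sheddases, Adam10 was higher in laminae I–II (log2 0.28) and Bace1 was lower (-0.16). Of 12 tested LAR-type phosphatases and their ligands, the parallel set of trans-synaptic pairs, 5 were higher, 3 lower and 4 did not pass (median log2 0.00), with Ptprf at 0.88 and Slitrk6 at -0.53. Of 5 contactin-associated proteins, 2 were higher, 1 lower and 2 did not pass, with Cntnap5b at 0.96 and Cntnap4 at -0.14. The median of sheddases turned from -0.15 to 0.03 with library totals, and that of the phosphatases from 0.00 to 0.18. With the neuronal sum as scale, 3 of 3 sheddases, 11 of 12 phosphatases and ligands and 5 of 5 contactin-associated proteins were called higher in laminae I–II, as were 77.3% of all genes.

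**Figure D5:**
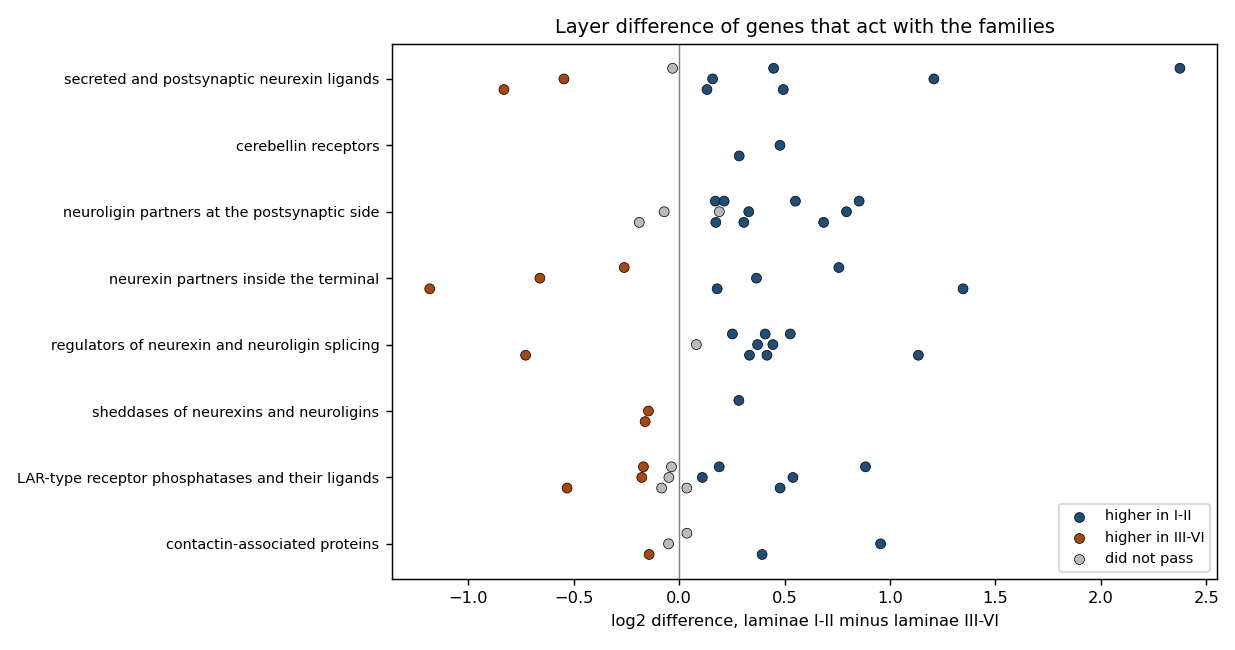
Log2 difference between laminae I–II and laminae III–VI (x axis) of each tested gene in 8 lists (y axis) of partners and related adhesion genes. Each point is 1 gene, blue where it was called higher in laminae I–II, brown where higher in laminae III–VI and grey where it did not pass. Of the neuroligin partners 9 of 12 are blue and none brown, and the terminal partners split into 4 and 3.

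Markers of neuron types also differed between the layers, and which of these types express the members was not tested. Of 10 markers of inhibitory neurons, 5 were higher in the superficial layer, 3 lower and 2 did not pass. Slc6a5, the glycine transporter of glycinergic neurons, was at 344 ± 36.5 normalized CPM (SD, n = 6) in laminae I–II against 968 ± 78.6 in laminae III–VI (log2 -1.49), and Slc32a1, the vesicular transporter of GABA and glycine, had log2 -0.84. In contrast Gad1, which makes GABA, was higher in laminae I–II by 0.49 on the log2 scale. Of 6 tested excitatory markers, 5 were higher in laminae I–II, namely Ebf2 (log2 5.23), Lmx1b, Tlx3, Maf and Lbx1. Slc17a6, a vesicular glutamate transporter, did not pass (log2 -0.08, edgeR adjusted p = 0.0828). On the other scales, which call more of all genes higher, 6 of 6 were called higher. Slc17a7, another vesicular glutamate transporter, was placed in the deep layer list and had a low level. Slc17a7 was lower in laminae I–II (log2 -1.68, edgeR adjusted p = 0.000126), also on the other scales. The direction for excitatory neurons therefore depends on which markers are taken. Markers of cells other than neurons also differed between the layers. Of tested markers, 7 of 7 for microglia, 6 of 8 for Schwann cells, 7 of 11 for fibroblasts and meninges and 5 of 8 for astrocytes were higher in laminae I–II, and 6 of 8 for oligodendrocytes were lower. Their summed levels in laminae I–II and laminae III–VI were 199 to 270 and 123 to 181 CPM for microglia, 574 to 1154 and 485 to 617 CPM for Schwann cells, and 342 to 782 and 280 to 326 CPM for fibroblasts and meninges. Those of astrocytes were 5152 to 6291 and 3802 to 4278 CPM, and those of oligodendrocytes, which overlapped, 14479 to 16293 and 15005 to 17005 CPM. The direction for oligodendrocytes rests on the library scale. With library totals 2 of their 8 markers were higher in laminae I–II, 2 were lower and 4 did not pass. With the neuronal sum 7 were higher and 0 lower. What part any of these cell types has in the layer differences of the members was not tested.

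Over the 12 libraries, the genes whose log2 normalized CPM followed each member most closely, among 11270 genes with a mean of at least 5 CPM, differed between members. Nrxn3 was nearest to Col4a3bp (Pearson r = 0.99), Atpaf1 (0.99) and Fgfr1op2 (0.98). Nrxn2 was nearest to Prrc2a (0.95), Nlgn1 to Stag2 (0.97), Nlgn3 to Spock1 (0.96) and Nxph1 to Sema3f (0.96). For Nlgn2 it was Lingo1 (0.89), for Nxph2 Cdyl (0.96), for Nxph3 Mettl15 (0.86) and for Nxph4 Adck2 (0.92). The libraries share their layer and depth, and these values describe them without a test.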

How the data were processed

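RNA of 12 laser-microdissected dorsal horn libraries was prepared by the authors with a stranded rRNA-depleting kit and sequenced in paired-end reads. According to the methods, reads were mapped to the rat reference (rn6) with CLC Genomics Workbench, and the deposited tables hold raw total counts per gene. The strand setting of the counting is not given in the sources used here. Quantile-normalized counts and the columns of the authors' own CNO comparison (p-values and fold changes) were not used.

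The tools used on the counts were R 4.3.3 (DESeq2 1.42.0, edgeR 4.0.16, limma 3.58.1) and Python 3.11.15. Genes with low counts were removed by filterByExpr (minimum count 10, minimum total 15), libraries were scaled by TMM, and the quasi-likelihood test of edgeR was used with a Benjamini-Hochberg adjusted threshold of 0.05. CNO was tested within each layer. The layer difference and the interaction were fitted over all 12 libraries with the rat as a block. Superficial and deep libraries that share treatment and number deviated together from their group means (r = 0.133 to 0.199 in 6 pairs). For other numbers r was -0.129 to -0.0323. Deviations from a group mean cancel out, so a positive value for the same number pushes the others negative. Saline and CNO libraries of the same number, which are different rats, also deviated together (r = 0.0235 to 0.139). The check therefore cannot show that a number is 1 rat. The methods describe both layers as cut from sections of 3 rats, and each number was treated as 1 rat, which the labels do not state.

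All 9 members are named. Of each list, up to 4 genes with the smallest p in the layer difference were eligible, with others named where a count or contrast needed them, chosen after their values were seen. The members and the 21 gene lists were chosen with earlier results of these data known. Alternatives were RLE factors, library totals, the neuronal marker sum as scale, no filter, a filter of 1 CPM in 3 libraries, DESeq2, limma-voom, the edgeR exact test, other blocks, each treatment alone, all 12 libraries together and leaving out each library. The steps were tested on simulated data. Promoter sequences come from RefSeq (GRCr8). An exact permutation of 3 libraries against 3 has a smallest p of 0.1.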

Additional observations from a re-analysis of the deposited data

How the results depend on the processing

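The 5 members called higher in laminae I–II kept that call in every alternative run for the layer difference and without each library. Library totals and the neuronal sum move all genes toward laminae I–II, so keeping the call on those scales is no check of it. No member passed in a CNO comparison or the interaction in the alternatives run for each. The exact test and the fit of all 12 libraries were run only within a layer, and Saline or CNO rats alone only for the layer difference. Directions that rest on the library scale were Nlgn2 (log2 0.10 with library totals, 0.43 with the neuronal sum), Nxph3 (0.073 and 0.40) and Nxph4 (0.32 with the neuronal sum). With the neuronal sum 0 members were lower in laminae I–II, and Nrxn3 had -0.04. Library totals gave 6515 genes higher and 2533 lower in laminae I–II, and the neuronal sum 10621 and 867, against 4235 and 4227. Leaving out 1 library gave 1 to 2 members lower. The cause was not tested beyond the construction of each scale.

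Counts of genes higher and lower with CNO in laminae I–II were 4 and 15. They were 44 and 87 without a filter, 2 and 7 with DESeq2, 9 and 32 with the exact test, 1 higher with the neuronal sum, 2 higher with limma-voom, and 0 to 11 and 3 to 26 without 1 library. In laminae III–VI they were 11 and 7. They were 66 and 46 without a filter, 34 and 15 with the exact test, 6 higher with library totals and with the neuronal sum, 4 lower with DESeq2 and with limma-voom, 0 and 0 in the fit of all 12 libraries, and 0 to 56 and 0 to 37 without 1 library. For the interaction they were 20 and 39, with 60 and 104 without a filter, 9 and 13 with DESeq2, 40 and 25 with the neuronal sum, 25 lower with library totals, and 5 to 28 and 9 to 56 without 1 library.

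Saline and CNO libraries of the same number deviated together only weakly (r = 0.0235 to 0.139), although 12 of 12 libraries correlated best with their own number, as a hint from the data and not the design. Those are different rats, so a shared number does not by itself mark a rat. With that number as a replicate block, 23 genes were higher and 55 lower in laminae I–II and 137 and 57 in laminae III–VI, with 0 members in either. With no replicate block the interaction gave 0 higher and 2 lower genes.

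Signs of CNO differences that passed no test also changed. Without a filter Nlgn3 in laminae I–II had 0.0044. For the interaction, Nrxn2 had -3.7e-05 with RLE factors and -0.00020 with DESeq2, and Nlgn1 0.0043 with library totals and 0.025 with the neuronal sum. Without 1 library, the range in laminae I–II was -0.076 to 0.030 for Nlgn3, -0.45 to 0.013 for Nxph2, -0.10 to 0.42 for Nxph3 and -0.062 to 0.19 for Nxph4. In laminae III–VI it was -0.046 to 0.079 for Nlgn1, -0.11 to 0.066 for Nxph1, -0.26 to 0.42 for Nxph2 and -0.030 to 0.23 for Nxph3. For the interaction it was -0.14 to 0.041 for Nlgn1, -0.052 to 0.069 for Nrxn2 and -0.15 to 0.31 for Nxph3.

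Shares taken as the log2 ratio to the geometric mean of the family gave an adjusted exact p of 0.0417 for Nrxn2 (0.39), Nlgn2 (-0.24), Nlgn3 (0.10), Nxph2 (0.86), Nxph3 (-0.48) and Nxph4 (-0.54). Each of these had an exact permutation p of 0.03125, the smallest that 6 rats allow. The adjusted value therefore depends only on how many genes reach that smallest p, and Nxph3 reached it here but not as a plain share. Counts of Nxph2 and Nxph3 under 32 per library limit what can be said of both, and they also enter the geometric mean against which Nxph4 was set.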
